A study of Mus musculus with 2 samples.

Results

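A set of 9 genes of the Hedgehog pathway was read in single tdTomato+ cells of adult mouse skeletal muscle. They were the receptor *Ptch1*, the decoy receptor *Hhip*, the co-receptors *Boc*, *Cdon* and *Gas1*, the signal transducer *Smo* and the transcription factors *Gli1*, *Gli2* and *Gli3*. The genes were chosen by symbol, and each of the 9 matched 1 of the 28001 features listed in both count matrices. Both libraries came from C57BL/6J mice of the genotype Hic1CreERT2/CreERT2;Rosa26LSLtdTomato/tdTomato, in which tamoxifen (TAM) switches on tdTomato in cells that transcribe *Hic1* at that time, so that these cells and their progeny stay marked. For the E10-P56 library the dams were gavaged with 7.5 mg TAM at embryonic day 10, and for the adult pulse library animals 8 weeks of age received 5 daily injections of 2.5 mg. Muscle was collected at postnatal day 56 by the labels, although injections that begin at 8 weeks place the adult pulse collection after that day. The paper also gives a later collection day for its adult pulsed cells than for its E10-P56 cells. For muscle of P56 mice the methods describe pooled tibialis anterior muscles and 10x Chromium 3' capture. Cells were sorted repeatedly for tdTomato and against endothelial and hematopoietic surface markers. The paper cites an earlier study for its adult pulsed cells, so the adult pulse library may have been prepared differently.

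Hedgehog ligands bind Ptch1, which otherwise holds Smo inactive. Active Smo lets the Gli factors switch on target genes, among them *Ptch1*, *Gli1* and *Hhip* themselves, so the transcripts of these genes are widely read as gauges of pathway activity. In peripheral nerve, Schwann cells make the ligand Desert hedgehog (*Dhh*), which is known for its role in forming the perineurium, the sheath of flattened cells around each bundle of nerve fibres.

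With 1 library per condition there was no replicate, and no test or p-value was taken. The E10-P56 library kept 6087 of 8236 barcodes and 62501170 unique molecular identifiers (UMIs, each standing for 1 captured transcript), and the adult pulse library kept 8567 of 9195 barcodes and 68153231 UMIs. The 2 libraries shared 15 cell barcodes. Cells were assigned to classes by marker genes that held no Hedgehog pathway member. This gave 168 perineurial cells in E10-P56 and 38 for the adult pulse, 39 and 72 nerve fibroblasts, 4284 and 7080 fibroblasts, 285 and 622 tenocytes, 690 and 495 pericytes, and 186 and 21 vascular smooth muscle cells. Perineurial cells held a median of 7 of 12 perineurial markers in each library. At the cut of 4 markers lay 21 of the 168 and 7 of the 38. Of 8 endothelial markers, 5 were detected in the perineurial cells of E10-P56, summing to 188 CPM, and 2 in those of the adult pulse, summing to 287 CPM. *Cdh5* made up most of both sums, at 176 and 266 CPM. *Pecam1* was at 0.970 and 20.5 CPM, *Emcn*, *Kdr* and *Flt1* had 6, 4 and 1 UMIs in E10-P56 and 0 for the adult pulse, and *Cldn5*, *Egfl7* and *Tie1* were at 0 in both. The part of endothelial RNA in the levels below was not tested. Nerve fibroblasts of E10-P56 held 895 CPM of the 9 tenocyte markers (185 UMIs, 5 of 9 detected), with *Tnmd*, *Mkx*, *Kera* and *Col22a1* at 0. Fibroblasts of that library held 141 CPM of them. For adult pulse nerve fibroblasts the sum was 148 CPM, below the 305 CPM of fibroblasts of the same library. Whether cells of another type were among the 39 nerve fibroblasts of E10-P56 was not tested. CPM are UMIs of a gene per 1000000 UMIs of the same class, and each interval of a level below is an exact 95% Poisson interval of the count. Intervals of levels and ratios cover counting error only and no spread between cells or animals.

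*Ptch1* and *Gli1* were far higher in perineurial cells than in fibroblasts in both libraries, and higher in nerve fibroblasts too. The other receptors and *Gli2* and *Gli3* were spread over several classes, and *Gas1* was highest in tenocytes. The map of levels by class and library gives all 9 genes.

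**Figure D1:**
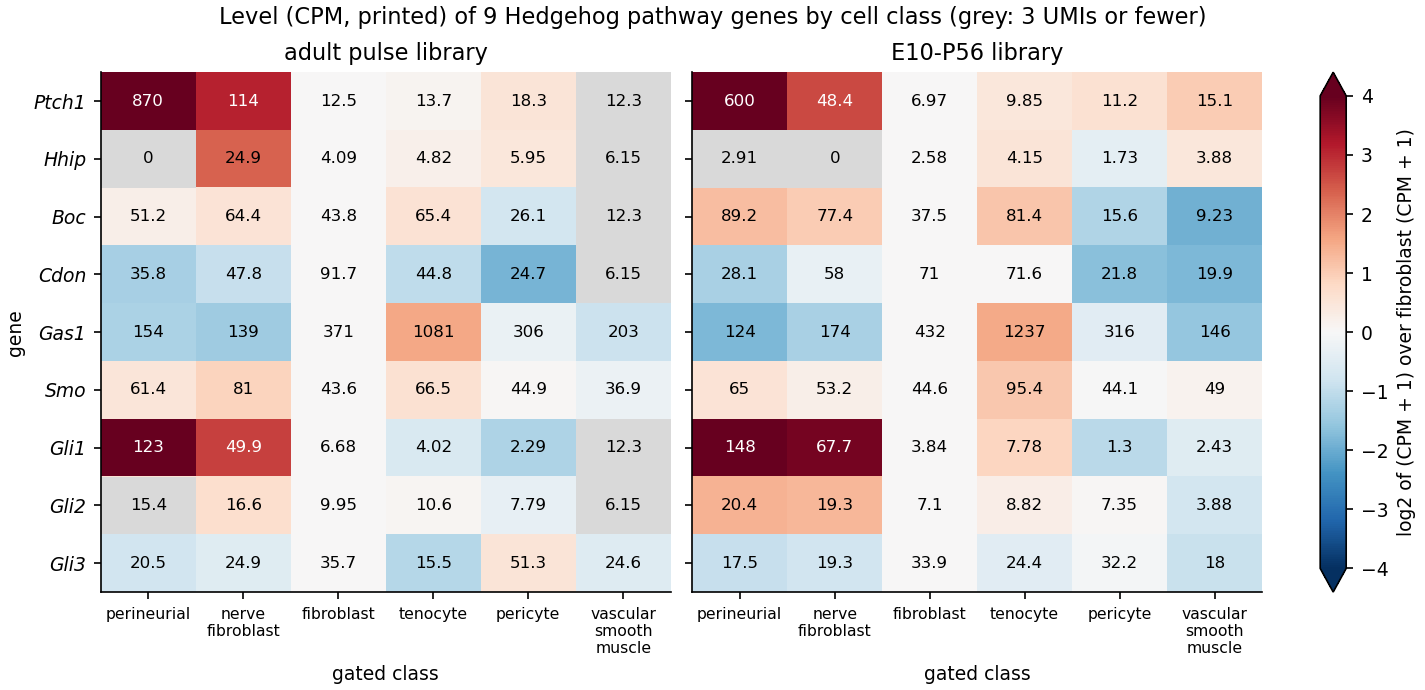
Level in CPM (printed in each cell) of the 9 genes in 6 gated classes, in the adult pulse (left) and E10-P56 (right) libraries. Color is the log2 ratio to fibroblasts of the same library with 1 CPM added, and grey marks 3 UMIs or fewer. *Ptch1* and *Gli1* have their highest values in the perineurial column of both panels, and *Gas1* in the tenocyte column.

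A gene was called higher or lower where the ratio of CPM between classes reached 2-fold and the gene had 20 or more UMIs in both classes together. In E10-P56, 4 of the 9 members were higher in perineurial cells than in fibroblasts (*Ptch1*, *Gli1*, *Gli2* and *Boc*) and 2 were lower (*Cdon* and *Gas1*). Over all 13520 genes compared, 15.7% were higher and 8.25% were lower. In the adult pulse, 2 members were higher (*Ptch1* and *Gli1*) and 2 were lower (again *Cdon* and *Gas1*), against 17.5% higher and 9.05% lower of 13848 genes. The median ratio over the 9 genes was 1.46 in E10-P56, against 1.17 over all genes compared. *Hhip*, at 0 UMIs, gave no ratio in the adult pulse, where the median of the other members was 1.29, against 1.19. *Ptch1* and *Gli1* had ratios above 10 in both libraries. With graph clusters in place of the gates, the adult pulse ratios were 18.2 for *Ptch1* and 8.73 for *Gli1*. With the gates, the ratios of the other 7 members lay within 4-fold of 1 or could not be measured.

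For nerve fibroblasts against fibroblasts, the E10-P56 library had 4 members higher (*Ptch1*, *Gli1*, *Gli2* and *Boc*) and 1 lower (*Gas1*), where 17.8% of all genes compared were higher and 7.16% lower. The *Gli2* call rested on 4 UMIs. The adult pulse had 3 members higher (*Ptch1*, *Gli1* and *Hhip*) and 1 lower (*Gas1*), where 11.8% of genes were higher and 8.13% lower. *Ptch1* and *Gli1* were therefore called higher, and *Gas1* lower, in both nerve classes of both libraries. The *Gas1* call in nerve fibroblasts was lost for E10-P56 among cells without perineurial markers, at 0.625 times the fibroblast level, and for the adult pulse with finer graph clusters, at 0.519. The perineurial *Cdon* call of the adult pulse was lost with a mitochondrial limit of 5%, at 0.580.

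**Figure D2:**
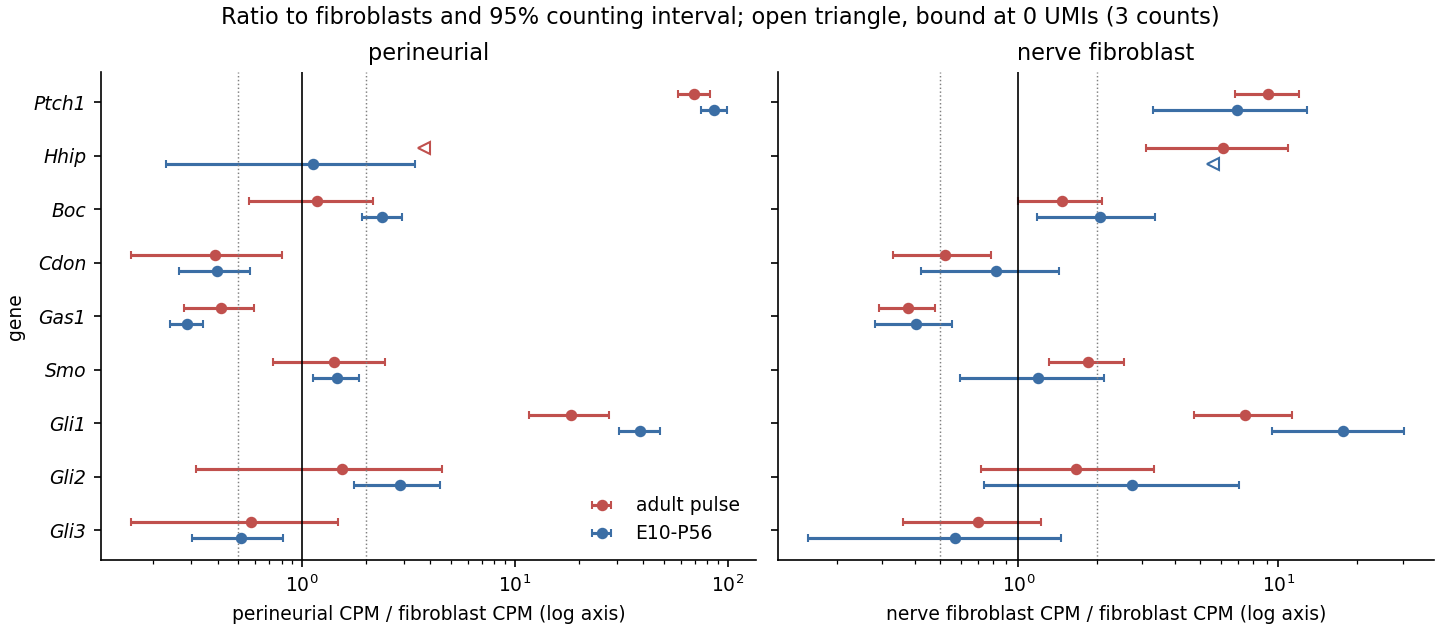
Ratio of CPM in perineurial cells (left) and nerve fibroblasts (right) to CPM in fibroblasts of the same library, on a log axis, with 95% counting intervals. Solid lines mark equality and dotted lines 2-fold, and open triangles are bounds for classes with 0 UMIs of *Hhip*, set at 3 counts. *Ptch1* and *Gli1* stand to the right of 2-fold in both panels and both libraries, and *Gas1* to the left of 0.5.

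*Ptch1* (ENSMUSG00000021466, minus strand of chr13:63508328-63573598 on GRCm38) encodes the receptor that binds Hedgehog ligands and restrains Smo. Its level in the E10-P56 library was 600.2 CPM in perineurial cells (interval 554 to 649), 48.4 in nerve fibroblasts (23.2 to 88.9), 15.1 in vascular smooth muscle cells, 11.2 in pericytes, 9.85 in tenocytes and 6.97 in fibroblasts (6.24 to 7.77). The adult pulse gave 870 CPM in perineurial cells (744 to 1010), 114 in nerve fibroblasts (86.1 to 149), 18.3 in pericytes, 13.7 in tenocytes, 12.5 in fibroblasts (11.6 to 13.5) and 12.3 in vascular smooth muscle cells, the last from 2 UMIs. Among these 6 classes, perineurial cells and nerve fibroblasts stood apart from each other and from the rest in both libraries, and the intervals of neighbouring classes further down the order overlapped. Schwann cells, which are not among the 6, lay between perineurial cells and nerve fibroblasts in level, with intervals that overlapped those of nerve fibroblasts. Endothelial cells are not among the 6 either. In E10-P56, 14 of them held 3 *Ptch1* UMIs, or 66.2 CPM (13.7 to 194). In the adult pulse, 55 held 12, or 48.5 CPM (25.1 to 84.7). Both intervals lay above that of fibroblasts in the same library. The perineurial level was 86.1 times that of fibroblasts in E10-P56 (interval of the ratio 75.2 to 98.8) and 69.4 times for the adult pulse (58.4 to 82.1). For nerve fibroblasts the ratios were 6.94 (3.30 to 12.9) and 9.12 (6.80 to 12).

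**Figure D3:**
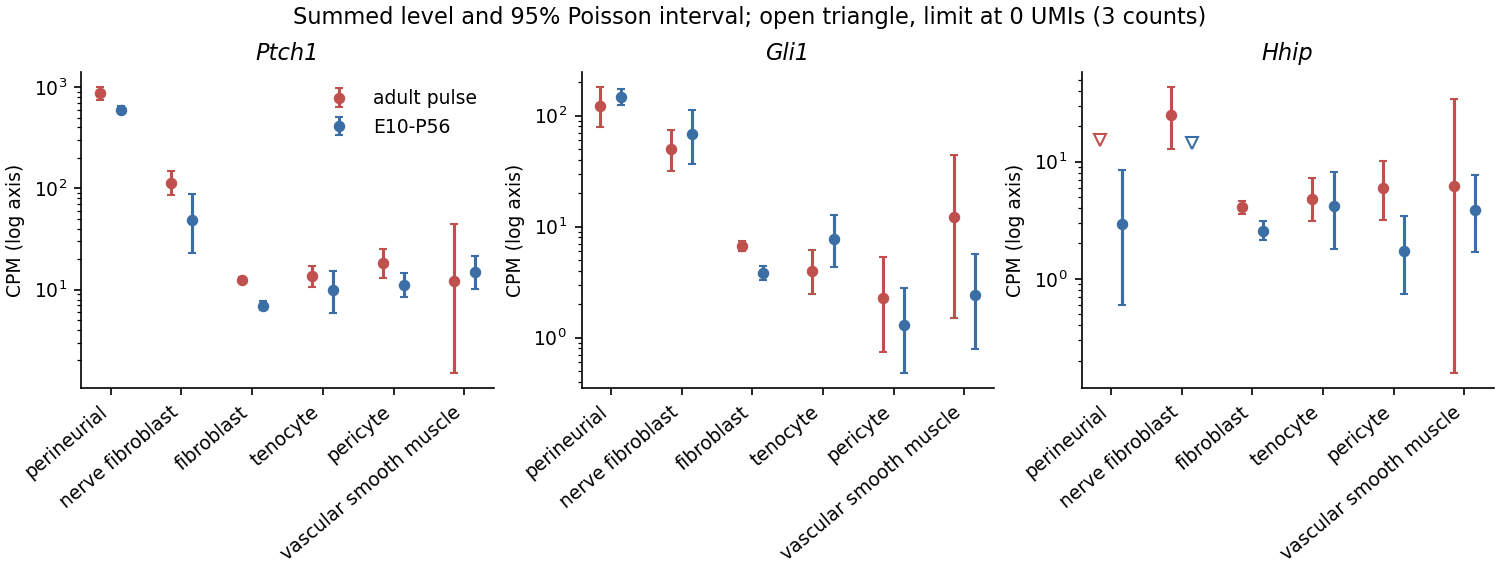
Level in CPM (log axis) of *Ptch1*, *Gli1* and *Hhip* in each of 6 gated classes, with exact 95% Poisson intervals, red for the adult pulse and blue for E10-P56. Open triangles mark classes with 0 UMIs, drawn at 3 counts. *Ptch1* falls from perineurial cells to nerve fibroblasts to the other plotted classes, while *Hhip* has its highest value in nerve fibroblasts of the adult pulse.

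*Ptch1* was found in most perineurial cells, though unevenly. *Ptch1* UMIs were found in 131 of the 168 E10-P56 perineurial cells (median 2, maximum 27 per cell) and in 29 of the 38 from the adult pulse (median 2, maximum 26). The 16 cells with most *Ptch1* in E10-P56 held 237 of its 619 UMIs, and the 3 such cells of the adult pulse held 63 of 170. Depth differed between classes, so each cell was also thinned to 1500 UMIs, which left out 0 cells of any class. After thinning, 48.8% of perineurial cells of E10-P56 had a *Ptch1* UMI (exact Clopper-Pearson 95% interval 41.0 to 56.6%, 78.0% without thinning, median depth 4862 UMIs) and 47.4% of those of the adult pulse (31.0 to 64.2%, 76.3% without thinning, median depth 4920.5). Fibroblasts, at median depths of 8812.5 and 7697.5 UMIs, gave 1.49% (1.15 to 1.90%) and 1.71% (1.42 to 2.04%), or 6.44% and 9.03% without thinning. For nerve fibroblasts the thinned shares were 2.56% (0.0649 to 13.5%, 1 of 39 cells) and 16.7% (8.92 to 27.3%, 12 of 72 cells). The first interval includes the share of fibroblasts in E10-P56. Pericytes gave 2.75% and 2.02% at median depths of 4349.5 and 3524.

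**Figure D4:**
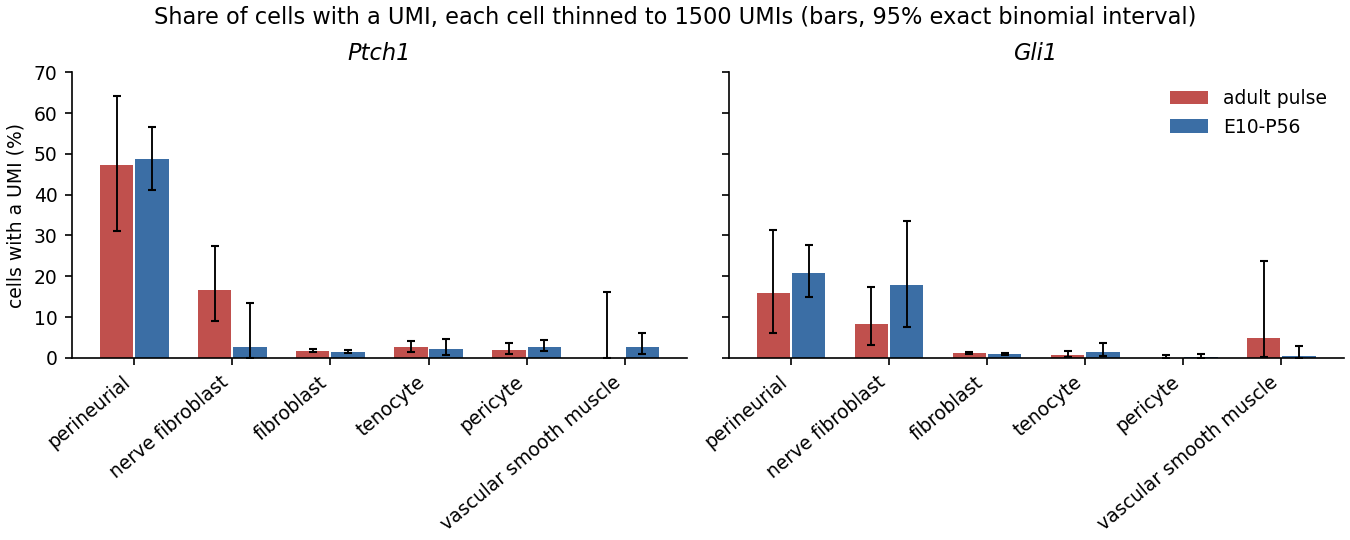
Share of cells (%) with at least 1 UMI of *Ptch1* (left) or *Gli1* (right) after each cell was thinned to 1500 UMIs, by class, red for the adult pulse and blue for E10-P56, with exact 95% binomial intervals. For *Ptch1*, perineurial cells of both libraries reach 47.4% and 48.8%, and fibroblasts stay under 2%.

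The perineurial gate does not contain *Ptch1*, so its level could be read against the number of perineurial markers per cell. In E10-P56, cells with 0 markers among fibroblasts, nerve fibroblasts and unassigned cells were at 6.70 CPM and those with 1 marker at 8.43 CPM. Cells of the same pool with 2 or 3 markers, just outside the gate, were at 25.0 CPM (18.4 to 33.1). Perineurial cells with 4 or 5 markers were at 465 CPM (378 to 566), those with 6 or 7 at 772 CPM (675 to 878) and those with 8 or more at 557 CPM (495 to 625). Cells below and above the cut were of different classes and depths, with a median of 13608 UMIs at 2 or 3 markers and 3243 at 4 or 5. The adult pulse values were 13.2, 13.7 and 25.3 CPM below the cut, then 844 CPM from 11 cells, 344 CPM from 10 cells and 1057 CPM from 17 cells.

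*Ptch1* UMIs were found in other classes of nerve cells as well. Schwann cells, gated by myelin and Schwann genes such as *Mbp*, *Prx* and *Sox10*, were at 105 CPM in E10-P56 (72.2 to 149, 61 cells) and 158 CPM for the adult pulse (51.3 to 369, 6 cells with 5 *Ptch1* UMIs). Cells that passed both the perineurial and the Schwann gate, 73 and 14, were at 446 and 440 CPM and were kept out of both classes. Their median depth in E10-P56 was 9845 UMIs, against 4862 for the perineurial and 4742 for the Schwann class. Within the perineurial class the 8 Schwann markers summed to 65.0 CPM in E10-P56 (8 of 8 detected). In the adult pulse they summed to 251 CPM, and *Mbp* and *Ncmap* were among those at 0. In fibroblasts they summed to 19.8 and 18.0 CPM. The part of Schwann RNA in the perineurial *Ptch1* level was not tested. Within the Schwann class the 12 perineurial markers summed to 455 CPM in E10-P56 and 506 CPM in the adult pulse. In fibroblasts those 12 summed to 28.7 and 28.6 CPM. The part of perineurial RNA in the Schwann *Ptch1* level was not tested either. Perineurial cells had more *Ptch1* per UMI than the Schwann class in both libraries. Nerve fibroblasts could hold up to 3 perineurial markers. The 47 of the adult pulse with none were at 94.3 CPM of *Ptch1* (63.6 to 135) and the 25 others at 153 CPM (99.2 to 226). In E10-P56 the 22 nerve fibroblasts with none held 3 *Ptch1* UMIs, or 29.99 CPM (6.19 to 87.7), and the 17 others held 7, or 65.6 CPM (26.4 to 135).

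*Gli1* (ENSMUSG00000025407, minus strand of chr10:127329882-127341974) encodes a Gli factor that is itself transcribed in response to the pathway. In E10-P56 it was at 148 CPM in perineurial cells (126 to 174), 67.7 in nerve fibroblasts (37.0 to 114), 7.78 in tenocytes (4.35 to 12.8), 3.84 in fibroblasts (3.30 to 4.44), 2.43 in vascular smooth muscle cells and 1.30 in pericytes. The adult pulse gave 123 CPM in perineurial cells (78.7 to 183), 49.9 in nerve fibroblasts (32.0 to 74.2), 12.3 in vascular smooth muscle cells from 2 UMIs, 6.68 in fibroblasts (6.03 to 7.37), 4.02 in tenocytes (2.45 to 6.20) and 2.29 in pericytes. Of these 6 classes perineurial cells came first and nerve fibroblasts second in both libraries, and the interval of nerve fibroblasts lay above that of fibroblasts. The ratio of perineurial cells to fibroblasts was 38.7 in E10-P56 (31.0 to 48.2) and 18.4 for the adult pulse (11.6 to 27.8). That of nerve fibroblasts was 17.6 (9.46 to 30.4) and 7.47 (4.73 to 11.3).

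The distance between perineurial cells and nerve fibroblasts was smaller for *Gli1* than for *Ptch1*. In the E10-P56 nerve fibroblasts without perineurial markers *Gli1* was at 80.0 CPM (34.5 to 158), and in those of the adult pulse at 53.4 CPM (31.1 to 85.6). After thinning, 20.8% of E10-P56 perineurial cells (14.96 to 27.8%) and 15.8% of adult pulse ones (6.02 to 31.3%) had a *Gli1* UMI, against 51.8% and 39.5% without thinning. Nerve fibroblasts gave 17.9% and 8.33%, fibroblasts 0.864% and 1.13%, and pericytes 0.290% and 0 of 495 cells. Each perineurial cell was also read for both genes together. In E10-P56, 71 of 168 perineurial cells had UMIs of both, 60 of *Ptch1* alone, 16 of *Gli1* alone and 21 of neither. The adult pulse had 13 of 38 with both, 16 with *Ptch1* alone, 2 with *Gli1* alone and 7 with neither. After thinning, 20 of the 168 and 5 of the 38 had both. Among the 4284 fibroblasts of E10-P56, 29 had both, and among the 7080 of the adult pulse 64. Cells without a UMI cannot be called negative at these depths.

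*Hhip* (ENSMUSG00000064325, minus strand of chr8:79965851-80058006) encodes a membrane protein that binds Hedgehog ligands and keeps them from Ptch1. Although it is known as a target of the pathway, it did not share the perineurial peak of *Ptch1*. Perineurial cells held 3 *Hhip* UMIs in E10-P56, or 2.91 CPM (0.600 to 8.50), and 0 UMIs in the adult pulse, where 3 counts would be 15.4 CPM. All 3 UMIs of E10-P56 were in 1 of its 168 perineurial cells, so the interval takes as independent counts that shared a cell. Fibroblasts were at 2.58 CPM (2.14 to 3.08) and 4.09 CPM (3.59 to 4.64). The E10-P56 ratio of perineurial cells to fibroblasts was 1.13 (0.229 to 3.38), and the adult pulse allowed any ratio up to 3.76. A perineurial excess of the size seen for *Ptch1* thus lay outside both limits. Nerve fibroblasts of the adult pulse held 12 *Hhip* UMIs, or 24.9 CPM (12.9 to 43.6), which was 6.10 times the fibroblast level (3.11 to 10.9). Those of E10-P56 held 0, which allows up to 14.5 CPM at 3 counts, 5.62 times the fibroblast level, a bound close to the ratio of the adult pulse. Tenocytes were at 4.15 and 4.82 CPM, pericytes at 1.73 and 5.95 and vascular smooth muscle cells at 3.88 and 6.15, the last from 1 UMI.

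The windows before the annotated starts of *Ptch1* and *Hhip* are shown because these 2 known targets differed in perineurial cells. Both are the 250 bases upstream of the RefSeq start on GRCm38.p6, written along the minus strand, with CpG dinucleotides in capitals. The *Ptch1* window is chr13:63565736-63565985, which lies inside an intron of longer *Ptch1* transcripts of the annotation, and the *Hhip* window is chr8:80058009-80058258.
Ptch1: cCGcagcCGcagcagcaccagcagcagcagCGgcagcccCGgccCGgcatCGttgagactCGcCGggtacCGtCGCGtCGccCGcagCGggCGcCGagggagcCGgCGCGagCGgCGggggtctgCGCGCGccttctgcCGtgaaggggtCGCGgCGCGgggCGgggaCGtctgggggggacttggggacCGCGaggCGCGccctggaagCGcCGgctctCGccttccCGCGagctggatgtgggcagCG
Hhip: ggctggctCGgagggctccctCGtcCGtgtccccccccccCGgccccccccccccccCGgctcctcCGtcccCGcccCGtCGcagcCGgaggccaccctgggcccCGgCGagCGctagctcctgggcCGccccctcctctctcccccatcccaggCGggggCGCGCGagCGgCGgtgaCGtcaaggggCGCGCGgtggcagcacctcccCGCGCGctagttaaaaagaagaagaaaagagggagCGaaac
With the first 50 transcribed bases included, the *Ptch1* window held 47 CpG and the *Hhip* window 30, against a median of 7 over 32851 such windows. The Gli binding motif GACCACCCA was searched on both strands, the other strand reading TGGGTGGTC. It was in 0 of the windows of the 7 members that had one, and in 0.253% of all windows. *Gli1* and *Boc* had no window. The search says only that these letters are not in these bases.

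Among the co-receptors, which present ligand to Ptch1, *Boc* (ENSMUSG00000022687, chr16:44485049-44558897) was at 89.2 CPM in perineurial cells of E10-P56 (71.9 to 109) and 51.2 CPM in those of the adult pulse (24.5 to 94.1). Nerve fibroblasts were at 77.4 and 64.4 CPM, tenocytes at 81.4 and 65.4, fibroblasts at 37.5 and 43.8, pericytes at 15.6 and 26.1, and vascular smooth muscle cells at 9.23 and 12.3. Pericytes were below fibroblasts in both libraries, and the intervals of perineurial cells, nerve fibroblasts and tenocytes overlapped. The perineurial ratio to fibroblasts was 2.38 (1.91 to 2.94) in E10-P56 and 1.17 (0.560 to 2.15) for the adult pulse.

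*Cdon* (ENSMUSG00000038119, chr9:35421128-35507652), a co-receptor of the same family as *Boc*, had a different order. It was at 28.1 CPM in perineurial cells of E10-P56 (18.8 to 40.4) and 35.8 CPM in those of the adult pulse (14.4 to 73.8), 0.396 (0.265 to 0.570) and 0.391 (0.157 to 0.806) times the fibroblast levels of 71.0 and 91.7 CPM. Nerve fibroblasts were at 58.0 and 47.8 CPM, tenocytes at 71.6 and 44.8, pericytes at 21.8 and 24.7, and vascular smooth muscle cells at 19.9 and 6.15. Perineurial and mural cells were thus both below fibroblasts.

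*Gas1* (ENSMUSG00000052957, chr13:60174405-60177365), a lipid-anchored co-receptor, was highest in tenocytes, at 1237 CPM in E10-P56 (1188 to 1288) and 1081 CPM for the adult pulse (1052 to 1110). Fibroblasts followed at 432 and 371 CPM, then pericytes at 316 and 306. Perineurial cells, at 124 CPM (104 to 148) and 154 CPM (104 to 219), and nerve fibroblasts, at 174 CPM (122 to 241) and 139 CPM (108 to 177), were both below fibroblasts, with vascular smooth muscle cells at 146 and 203. The perineurial ratio to fibroblasts was 0.287 (0.240 to 0.342) and 0.414 (0.279 to 0.591). Cells with 2 or 3 perineurial markers just outside the gate were at 217 and 209 CPM of *Gas1*.

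*Smo* (ENSMUSG00000001761, chr6:29735503-29761365) encodes the receptor-like protein that carries the signal inward, and it was found in each of the 6 classes given here. In E10-P56 its levels ran from 44.1 CPM in pericytes and 44.6 in fibroblasts through 49.0 in vascular smooth muscle cells, 53.2 in nerve fibroblasts and 65.0 in perineurial cells to 95.4 in tenocytes. In the adult pulse they ran from 36.9 CPM in vascular smooth muscle cells, 43.6 in fibroblasts and 44.9 in pericytes through 61.4 in perineurial cells and 66.5 in tenocytes to 81.0 in nerve fibroblasts. Tenocytes were above fibroblasts in both libraries, by 2.14 times (1.83 to 2.49) and 1.52 times (1.35 to 1.71). The perineurial ratios were 1.46 (1.12 to 1.86) and 1.41 (0.726 to 2.46).

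*Gli2* (ENSMUSG00000048402, chr1:118834132-119053619), known as the main activator among the Gli factors, was detected at low levels in each of the 6 classes. It was at 20.4 CPM in perineurial cells of E10-P56 from 21 UMIs (12.6 to 31.1), 2.87 times the fibroblast level of 7.10 CPM (1.75 to 4.46). The adult pulse held 3 perineurial UMIs, or 15.4 CPM (3.17 to 44.9), against 9.95 CPM in fibroblasts, a ratio of 1.54 (0.317 to 4.53). Nerve fibroblasts were at 19.3 and 16.6 CPM and tenocytes at 8.82 and 10.6. *Gli3* (ENSMUSG00000021318, chr13:15463235-15730026), known mainly as a repressor when no ligand is present, was lower in perineurial cells, at 17.5 CPM (10.3 to 27.6) and 20.5 CPM (5.58 to 52.4), than in fibroblasts, at 33.9 and 35.7. The ratios were 0.515 (0.304 to 0.816) and 0.574 (0.156 to 1.47), short of 2-fold in both, and the second interval included 1. Pericytes were at 32.2 and 51.3 CPM, nerve fibroblasts at 19.3 and 24.9, vascular smooth muscle cells at 18.0 and 24.6 and tenocytes at 24.4 and 15.5.

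Among the cells kept, tenocytes and mural cells (pericytes and vascular smooth muscle cells together) did not reach 2-fold for *Ptch1* in either library. In tenocytes against fibroblasts, 4 members were higher in E10-P56 (*Gli1*, *Smo*, *Boc* and *Gas1*) and 0 lower, where 10.8% of genes were higher and 8.57% lower, and the adult pulse had 1 higher (*Gas1*) and 2 lower (*Cdon* and *Gli3*), where 9.6% were higher and 12.1% lower. *Gas1* was the member called in both, at 2.86 times (2.74 to 2.99) and 2.91 times (2.83 to 3.001). The tenocyte ratio of *Ptch1* was 1.41 (0.840 to 2.24) and 1.09 (0.837 to 1.40). In mural cells, 0 members were higher and 3 lower in E10-P56 (*Gli1*, *Boc* and *Cdon*), where 13.4% of genes were higher and 12.9% lower, and 0 were higher and 2 lower in the adult pulse (*Gli1* and *Cdon*), where 14.5% were higher and 11% lower. The mural ratio of *Ptch1* was 1.78 (1.38 to 2.27) and 1.43 (1.02 to 1.95), above 1 in both libraries although under 2-fold. In E10-P56 the mitochondrial limit left out 393 barcodes that passed the vascular smooth muscle gate, against 186 kept. Those left out were at 20.7 CPM of *Ptch1* (46 UMIs, 15.2 to 27.6). Fibroblasts of E10-P56 were at 6.97 CPM among the cells kept and 10.2 CPM among the 209 left out (7 UMIs, 4.08 to 20.9). A mural ratio with the barcodes left out is not given here, so the result under 2-fold is stated for the cells kept only. *Cdon* was at 0.299 (0.251 to 0.354) and 0.256 (0.192 to 0.333) of the fibroblast level.

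Within fibroblasts the members separated 2 types that were gated on other genes. Pi16-type cells held more of a list with *Pi16* and *Dpp4*, and Col15a1-type cells more of a list with *Col15a1* and *Smoc2*. They numbered 1176 and 1625 in E10-P56 and 1738 and 3469 in the adult pulse, and 1483 and 1873 fibroblasts were of neither type. In both libraries 5 of the 9 members were at least 2-fold lower in Pi16-type than in Col15a1-type cells, *Hhip*, *Boc*, *Gas1*, *Gli1* and *Gli2*, where 10.3% of all genes in the E10-P56 cells and 12.3% in those of the adult pulse were lower. Higher in Pi16-type cells were 0 members in E10-P56 and 1, *Cdon*, in the adult pulse, against 5.46% and 6.38% of genes.

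*Hhip* had the widest gap between the fibroblast types. Col15a1-type cells held 87 *Hhip* UMIs in E10-P56 and 166 for the adult pulse, or 5.64 and 6.21 CPM, while Pi16-type cells held 4 and 4, or 0.319 and 0.283 CPM. *Gli2* was at 12 and 14.4 CPM in Col15a1-type cells and at 1.92 and 3.19 in Pi16-type cells. *Gli1* was at 6.68 and 8.75 CPM against 0.878 and 2.62, with ratios of 0.131 (0.0636 to 0.245) and 0.2995 (0.206 to 0.425). For *Boc* the levels were 60.9 and 70.4 CPM against 16.0 and 9.42, and for *Gas1* they were 645 and 523 CPM against 177 and 109. *Cdon* went the other way, at 60.8 and 54.8 CPM in Col15a1-type and 76.7 and 134 CPM in Pi16-type cells, with ratios of 1.26 (1.15 to 1.38) and 2.45 (2.29 to 2.63). *Ptch1* differed less, at 8.17 and 14.9 CPM against 5.74 and 9.06, as did *Smo* and *Gli3*, whose ratios lay between 0.650 and 0.814. Some perineurial calls against all fibroblasts would not hold against Col15a1-type cells alone. Perineurial cells of E10-P56, at 89.2 CPM of *Boc* and 20.4 of *Gli2*, were less than 2-fold above that type. Those of the adult pulse, at 35.8 CPM of *Cdon*, were less than 2-fold below it. The lower *Gas1* calls of both nerve classes would not hold against Pi16-type cells alone, at 177 and 109 CPM. Perineurial cells were at 124 and 154 CPM of *Gas1* and nerve fibroblasts at 174 and 139. Both were less than 2-fold below the Pi16-type level in E10-P56, and not below it in the adult pulse.

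**Figure D5:**
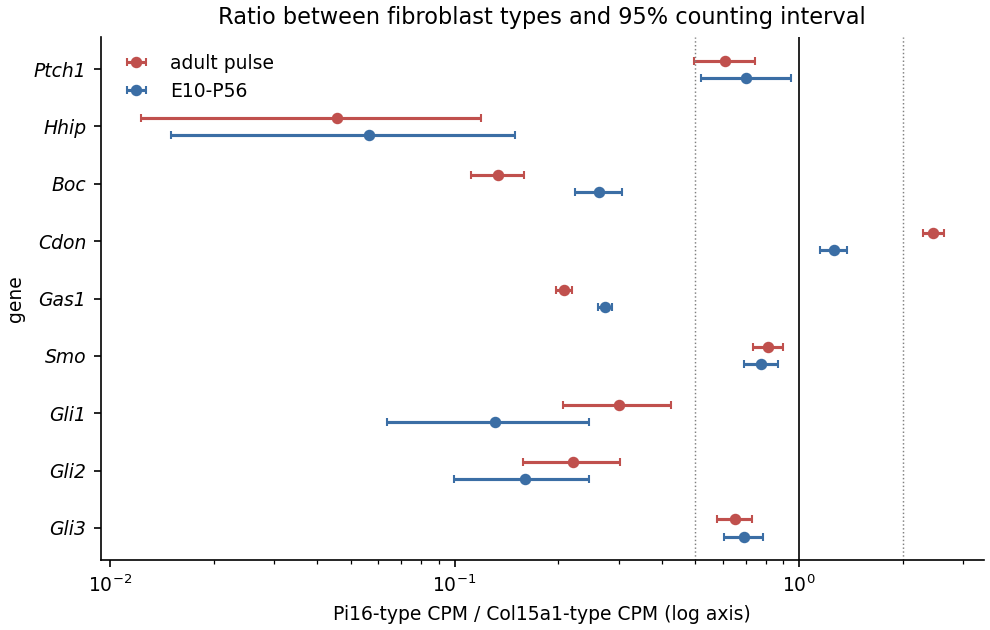
Ratio of CPM in Pi16-type to Col15a1-type fibroblasts for the 9 genes (log axis), with 95% counting intervals, red for the adult pulse and blue for E10-P56. The solid line marks equality and dotted lines 2-fold. *Hhip*, *Boc*, *Gas1*, *Gli1* and *Gli2* lie left of 0.5 in both libraries, and *Cdon* is the only one right of 1.

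Within a class, few members differed 2-fold between the libraries. In fibroblasts 0 of the 9 members differed 2-fold between E10-P56 and the adult pulse, where 6.85% of genes were higher in E10-P56 and 7.56% lower. *Ptch1*, *Gli1* and *Hhip* had the lowest ratios, 0.556 (0.487 to 0.634), 0.575 (0.479 to 0.687) and 0.631 (0.503 to 0.788), and *Smo* was at 1.02 (0.965 to 1.08). In perineurial cells 0 members passed 2-fold, where 14.5% of genes were higher and 4.13% lower. There *Ptch1* was again lower in E10-P56, at 0.690 (0.581 to 0.823) of the adult pulse, and *Gli1* was at 1.21 (0.782 to 1.94). For nerve fibroblasts 1 of the 6 members with enough UMIs was lower in E10-P56, *Ptch1* at 0.423 (0.192 to 0.838), and 0 were higher, where 10.3% of genes were higher and 5.56% lower. That value rested on 10 *Ptch1* UMIs of E10-P56. It passed 0.5 with no mitochondrial limit (0.508) and as a mean of per-cell CPM (0.539), and turned to 1.10 with finer graph clusters. Tenocytes had 0 members past 2-fold, where 7.38% of genes were higher and 4.72% lower, and mural cells had 1 lower, *Hhip* at 0.401 (0.183 to 0.887), and 0 higher, where 7.25% were higher and 5.34% lower. The 2 libraries also differed in animals, in the dose and route of TAM, in Cell Ranger version and in the share of classes. By the injection schedule they differed in animal age too. For animals traced from the embryo into adulthood the methods add progesterone for the dams, caesarean delivery and cross-fostering. None of these can be told apart from the time of labelling. *Hic1* itself was at 45.6 and 43.9 CPM in fibroblasts and 66.9 and 40.9 CPM in perineurial cells, and tdTomato at 1118 and 2044 CPM in fibroblasts and 1965 and 2149 CPM in perineurial cells.

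Other genes of the pathway were read from lists of ligands, negative regulators, cilium genes and reported targets. Of the ligands, *Dhh* was at 247 CPM in Schwann cells of E10-P56 from 75 UMIs and 126 CPM in the adult pulse ones, which held 4 UMIs of it. Cells that passed both the perineurial and Schwann gates were at 149 and 147 CPM. Perineurial cells held 0 and 1 *Dhh* UMIs, and fibroblasts 1 and 2, so RNA of this gene was hardly found outside cells with Schwann markers. *Shh* had 1 UMI over the classes listed and *Ihh* at most 8 in any class. *Scube1*, whose secreted family helps release ligand, was at 174 and 39.5 CPM in nerve fibroblasts against 0.256 and 2.84 in fibroblasts, and *Scube2* of the same family at 75.2 and 113 CPM in tenocytes against 1.11 and 0.954. Of the 9 ligand and release genes, 3 in E10-P56 and 4 for the adult pulse had enough UMIs in perineurial cells and fibroblasts together, of which 0 and 0 were higher and 1 and 1 lower, on 1 and 2 perineurial UMIs.

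Among 16 negative regulators, 2 were higher in perineurial cells than in fibroblasts of E10-P56 and 0 lower, with a median ratio of 1.17. In the adult pulse 1 was higher and 2 lower, with a median of 1.04 over the 14 with a ratio. These shares stand beside 15.7% higher and 8.25% lower of all genes in E10-P56 and 17.5% and 9.05% for the adult pulse. The medians over all genes with a ratio were 1.17 and 1.19. The 2 lower genes, *Gpr161* and *Tulp3*, had 1 perineurial UMI each, and the intervals of their ratios included 1. *Sufu*, which holds Gli factors in the cytoplasm, was at 13.6 CPM in perineurial cells of E10-P56 against 12.5 in fibroblasts, and had 0 perineurial UMIs in the adult pulse. Of 13 cilium and Smo transport genes, 2 were higher and 0 lower in E10-P56, and 1 higher and 2 lower in the adult pulse, the latter (*Kif3b* and *Evc*) on 1 UMI each with intervals that included 1. *Gprasp2*, which takes part in carrying Smo to the cilium, was higher in both, at 18.4 and 25.6 CPM against 1.22 and 2.32, from 19 and 5 perineurial UMIs. It was also called higher than in fibroblasts in nerve fibroblasts and tenocytes of both libraries and in mural cells of E10-P56.

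The list of 20 reported targets split. Of 16 with enough UMIs in each library, 5 were higher and 3 lower in perineurial cells of E10-P56, and 5 were higher and 4 lower in those of the adult pulse (*Mycn*, *Snai1* and *Osr2* on 2 UMIs each). Medians over the 15 and 13 targets with a ratio were 0.960 and 1.54, against 1.17 and 1.19 for all genes with a ratio. The transcription factor genes *Foxd1*, *Foxc2* and *Foxs1* were higher in both. *Foxd1* was at 183 and 118 CPM in perineurial cells against 0.767 and 1.21 in fibroblasts, ratios of 239 (167 to 351) and 97.3 (58.0 to 158), and *Foxs1* at 48.5 and 205 CPM against 6.12 and 9.35. *Foxs1* was also at 104 and 162 CPM in mural cells. *Bmp4*, a growth factor gene, was lower, at 16.5 and 20.5 CPM against 55.6 and 67.6, and *Tgfb2*, another growth factor gene, at 27.2 and 15.4 CPM against 93.8 and 164. In nerve fibroblasts 9 of 15 targets were higher and 1 lower in E10-P56, and 10 of 17 higher and 1 lower in the adult pulse. Medians over the 14 and 15 targets with a ratio were 2.69 and 2.63. Over all genes 17.8% and 11.8% were higher, with medians of 1.18 and 1.02 over those with a ratio. The calls of *Foxf1* in E10-P56 and of *Cdk6* and *Foxc2* in the adult pulse rested on 1 nerve fibroblast UMI each, with intervals that included 1. *Osr2* was in that count and was also a marker of the nerve fibroblast gate.

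Likeness of pattern was read as Pearson's r of log2(CPM + 5) over the 12 combinations of class and library. These points share libraries and differ in depth, so r is a description. Between *Ptch1* and *Gli1* r was 0.912, between *Gli1* and *Gli2* 0.868, and between *Ptch1* and *Gas1* -0.605. The 5 genes most like *Ptch1* were *Dleu7* (0.986), *Cldn1* (0.984), *Pdk1* (0.974), *Plscr2* (0.970) and *Dock9* (0.968), of which *Dleu7* and *Cldn1* were markers of the perineurial gate. Those most like *Gli1* were *Foxd1* (0.982), *Flrt1* (0.974), *Tenm2* (0.970), *Stxbp6* (0.965) and *Foxd2* (0.964), none of which was a gating marker. *Foxd2*, for example, was at 99.9 and 107 CPM in perineurial cells, 43.5 and 31.2 CPM in nerve fibroblasts and 1.09 and 1.33 CPM in fibroblasts.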

How the data were processed

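Single-cell RNA-seq of tdTomato+ muscle cells was used from 1 E10-P56 and 1 adult pulse library. The values the authors deposited are unnormalized UMI counts of each gene in each barcode. Per the file headers, Cell Ranger 5.0.0 made the E10-P56 matrix and 3.0.2 the adult pulse one, on a modified mm10 genome. Shallow barcodes were still present. Gene positions came from GENCODE M21 (GRCm38).

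A barcode was kept with 1500 UMIs or more of which no more than 10% were mitochondrial. This left out 1310 and 839 barcodes of E10-P56 and 465 and 163 of the adult pulse. No doublets were removed, but 115 and 25 cells with markers of more than 1 class, and 159 and 134 of none, entered no class. A cell needed 4 of 12 markers to be perineurial, 4 of 9 to be a tenocyte, 5 of 8 to be a pericyte or vascular smooth muscle cell and 5 of 10 to be a fibroblast with no other class. Nerve fibroblasts needed 2 of 10 markers and 1500 CPM of them. Fibroblast types needed a difference of 0.3 between the detected shares of the 2 lists. These limits were set on marker counts, without the Hedgehog genes. The genes and lists were chosen with earlier results of these data known. Named beyond the members were up to 4 genes per pathway list with most UMIs or past 2-fold and the 5 genes most like *Ptch1* and *Gli1* with at least 100 UMIs. Some genes of these lists are counted but not reported by name here.

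Counts were summed per class as CPM. Intervals are exact Poisson for levels, conditional binomial for ratios and Clopper-Pearson for shares, all at 95%, and a class at 0 was set at 3 counts. In the annotation *Gli1* overlaps *Arhgap9* on the other strand, and no member overlaps another listed gene on its own strand. Alternatives covered filters, doublets (Scrublet in scanpy 1.11.5), gates, Leiden clusters (leidenalg 0.10.2, resolution 0.5), scaling and weighting. Steps were tested on simulated data. Python 3.11.15, numpy 2.4.6, scipy 1.17.1 and pandas 2.3.3 were used.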

Additional observations from a re-analysis of the deposited data

Results flagged for a closer look

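Barcodes with more than 10% mitochondrial UMIs entered no comparison, yet some passed the perineurial gate with a *Ptch1* or *Gli1* signal above 3 counts. In E10-P56 there were 11 such barcodes, at 1588 CPM of *Ptch1* (74 UMIs, interval 1247 to 1993) and 408 CPM of *Gli1* (19 UMIs, 245 to 637). The adult pulse had 9, at 255 CPM of *Ptch1* (8 UMIs, 110 to 502) and 127 CPM of *Gli1* (4 UMIs, 34.7 to 326).

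Ratios lay on opposite sides of 1 in the 2 libraries for 2 members, each with an interval that excluded 1. *Gli1* in tenocytes was 2.03 times the fibroblast level in E10-P56 (15 UMIs, 1.11 to 3.43) and 0.601 times in the adult pulse (20 UMIs, 0.363 to 0.942). *Gli3* in mural cells was at 0.820 (0.701 to 0.955) and 1.39 (1.14 to 1.67), where vascular smooth muscle cells made up 186 of 876 mural cells in E10-P56 and 21 of 516 in the adult pulse. With 1 library per condition neither difference was tested.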

How the results depend on the processing

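The ratio of *Ptch1* between perineurial cells and fibroblasts stayed between 82.4 and 109 in E10-P56 and between 18.2 and 77.5 in the adult pulse over 9 alternatives, and that of *Gli1* between 31.2 and 45.4 and between 8.73 and 25.3. *Ptch1* left its counting interval with a mitochondrial limit of 5% (56.7 in the adult pulse), with graph clusters in place of gates (105.9 in E10-P56 and 18.2 for the adult pulse, where *Gli1* came to 8.73) and with finer clusters chosen after the data had been seen (108.6 and 44.1). In the adult pulse the perineurial cluster held 186 cells, and the finer one 65, against 38 gated cells, with no separate nerve fibroblast cluster at the coarser resolution.

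Members higher in perineurial cells of the adult pulse numbered 4 with clusters. Lower ones numbered 1 with the 5% limit in the adult pulse and 4 with per-cell means in E10-P56. Members higher in nerve fibroblasts of the adult pulse numbered 5 with per-cell means. Lower ones in the adult pulse numbered 2 with 1 more marker, without mitochondrial and ribosomal protein genes or with per-cell means, and 0 with finer clusters, and in E10-P56 2 with a UMI minimum of 3000. At 4-fold, 2 members remained higher in perineurial cells of E10-P56, 2 in its nerve fibroblasts, and 0 were lower in either class of either library. Without perineurial markers, nerve fibroblasts of E10-P56 had 2 members higher and 0 lower (chosen after the data had been seen). The E10-P56 over adult pulse ratio of *Ptch1* in nerve fibroblasts turned to 1.10 with finer clusters. Causes were not tested.

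Of 1736 values under alternatives, 1536 stayed within their counting interval or within 1.5 times a count. All shares grew with thinning to 3000 UMIs or without thinning. Of the 5 genes most like *Ptch1*, 4 were named again with 1 CPM added and 4 among genes with 500 or more UMIs, and of those most like *Gli1* 3 and 2. No paired analysis was possible because each condition had 1 library. Low counts limit *Hhip*, *Gli2* and *Gli3* in both nerve classes and every value of the 21 vascular smooth muscle cells of the adult pulse. They also limit *Ptch1* and *Gli1* in nerve fibroblasts of E10-P56, at 10 and 14 UMIs.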
